A study of Drosophila melanogaster with 23 samples.

Results

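The genes described here are the 6 Drosophila melanogaster enzymes that add methyl groups to lysine 36 of histone H3 (H3K36) or are known to take them off: the methyltransferases Set2, ash1 and NSD and the demethylases Kdm2, Kdm4A and Kdm4B. They were chosen by name, and each symbol was matched to its FlyBase gene ID, which gave 6 of the 17023 genes counted in each library. Sequencing of poly(A)-selected RNA gave gene counts for 23 ovary libraries, 2 in each group except whole ovaries with 1, dissected 1 to 5 days after eclosion. The study asked how MSL3 takes part in the female meiotic program, and Set2 was included as one of the genes knocked down. Ovaries named Set2 RNAi, msl3 RNAi, NC2b RNAi and S19b RNAi each carried that RNAi with UAS-Dcr2 and nosGAL4, a driver that is active in the germline, so the somatic cells of these ovaries were not targeted. S19b stands for RpS19b, a ribosomal protein paralog, and NC2b for NC2beta, a subunit of a general transcription cofactor. The bam RNAi;S19b mutant ovaries carried nosGAL4 with bam RNAi and an S19b mutation, without UAS-Dcr2 in the label. Their control carried bam RNAi with nosGAL4 alone, and without bam, which switches cysts to differentiation, germ cells stay undifferentiated. The hsbam control carried bam RNAi and nosGAL4 together with a heat-shock bam transgene. Set2 RNAi was set against hsbam 3 and 4. The libraries labelled MSL3 RNAi, here called MSL3-labelled, and those of NC2b RNAi were set against hsbam 1 and 2. S19b RNAi and hsbam ovaries also gave total and polysome RNA from gradients, with 2 libraries of each. Whole ovaries carried UAS-Dcr2 and nosGAL4 with no RNAi. A knockdown therefore differed from hsbam in its bam transgenes and in UAS-Dcr2 as well as in the targeted gene.

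Methylated H3K36 marks the bodies of transcribed genes. Set2 binds the elongating form of RNA polymerase II and places the trimethyl mark behind it, whereas ash1, a Trithorax group protein that opposes Polycomb silencing, and NSD place the dimethyl mark. Kdm4A and Kdm4B remove methyl groups from H3K36 and H3K9, and Kdm2 acts on H3K36 and is found with a Polycomb group ubiquitin ligase. The mark is read by proteins with chromo or PWWP domains, among them MSL3, the chromodomain subunit of the complex that raises transcription of the male X chromosome.

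Library totals were between 2780781 and 39149303 counts, and intervals on counts below cover counting error only. The library hsbam polysome 2 was the shallowest and had 0 counts at 339 of the 6992 genes with a mean of at least 10 CPM (counts scaled to the library total), against 0 to 66 of them in the other 22 libraries. The labels do not state that a group's 2 libraries are from separate flies, so p-values measure the spread between libraries, which may be technical. In the MSL3-labelled libraries, msl-3 had 65.6 and 39.1 CPM, against 32.0 and 38.5 CPM in the controls hsbam 1 and 2, and so was not lower than in the control. NC2beta had 4.69 and 5.12 CPM in NC2b RNAi, against 12.2 and 16.0 CPM in hsbam 1 and 2. RpS19b was at 16.1 and 16.8 CPM in S19b RNAi polysome 1 and total 1 but at 3.51 and 1.44 CPM in polysome 2 and total 2. In hsbam it was at 85.1 and 256 CPM in polysome RNA and at 39.4 and 227 CPM in total RNA. Low RpS19b was not particular to S19b RNAi, with 1.26 to 5.26 CPM in the Set2 RNAi, MSL3-labelled and NC2b RNAi libraries and 4.90 CPM in whole ovaries. The hsbam controls were uneven, with bam itself at 4.61, 71.9, 173 and 77.0 CPM in hsbam 1 to 4. Germline markers measured were nos, aub, zpg and bam, and all 4 had counts in every library, with sums of 277 to 1041 CPM. These sums include bam, which is the RNAi target in the hsbam and bam RNAi genotypes and is also supplied by the hsbam transgene. A germline sum set against these genotypes therefore does not measure germline content alone. Of 5 somatic ovary markers, tj, Wnt4 and Fas3 had counts in every library. The summed CPM of 4 muscle sheath markers (Mhc, Act57B, up, Tm2) was 908 to 982 in Set2 RNAi, 2466 to 7583 in the MSL3-labelled libraries and in NC2b RNAi, 5132 to 20772 in hsbam 1 to 4, and 209 in whole ovaries. In such bulk samples, fewer cells of a type and less RNA per cell cannot be told apart.

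Positions are on dm6. Set2 (FBgn0030486) lies on the plus strand of chromosome X from 13413242 to 13421024. The gene ash1 (FBgn0005386) lies on the minus strand of 3L from 19590773 to 19598755, and NSD (FBgn0039559) on the minus strand of 3R from 27932982 to 27937853. Kdm2 (FBgn0037659) lies on the plus strand of 3R from 9052495 to 9063245. Kdm4A (FBgn0033233) and Kdm4B (FBgn0053182) both lie on the minus strand of 2R, from 7922775 to 7924988 and from 13176553 to 13198337. NSD shares 2.09% of its exon bases with mino and Kdm2 shares 2.08% with beag, both on the opposite strand. The annotation puts 84.8% of the Kdm4B exon bases inside exons of CG17724 and 56.6% inside exons of seq, on the same strand, so the counts of Kdm4B are uncertain. The gene seq had 0 CPM in every library and CG17724 had 5.45 to 41.6 CPM.

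Per kilobase of exon, the median level over the 23 libraries was highest for NSD and Kdm4A, with 40.9 and 33.7 CPM per kb. Set2 and Kdm2 followed with 17.4 and 17.2 CPM per kb, then ash1 with 11.3 and Kdm4B with 1.18 CPM per kb. Kdm2 had the narrowest range of the 5 members with counts in every library, between 45.6 and 129 CPM over the 23 libraries, a 2.83-fold range. Kdm4A spanned 18.7 to 100.3 CPM (5.36-fold), Set2 37.2 to 398 CPM (10.7-fold) and NSD 38.5 to 460.1 CPM (12.0-fold). For Set2, NSD, Kdm2 and Kdm4A the lowest of the 23 values came from hsbam 4, whose muscle sheath sum was also the highest, 20772 CPM. The part of these other cells in the levels was not tested. For ash1 and Kdm4B the lowest value came from hsbam polysome 2, with 7 counts of ash1 (2.52 CPM, 95% Poisson interval 1.01 to 5.19) and 0 counts of Kdm4B, where the limit taken for a count of 0, which is 3 counts, stands at 1.08 CPM.

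**Figure D1:**
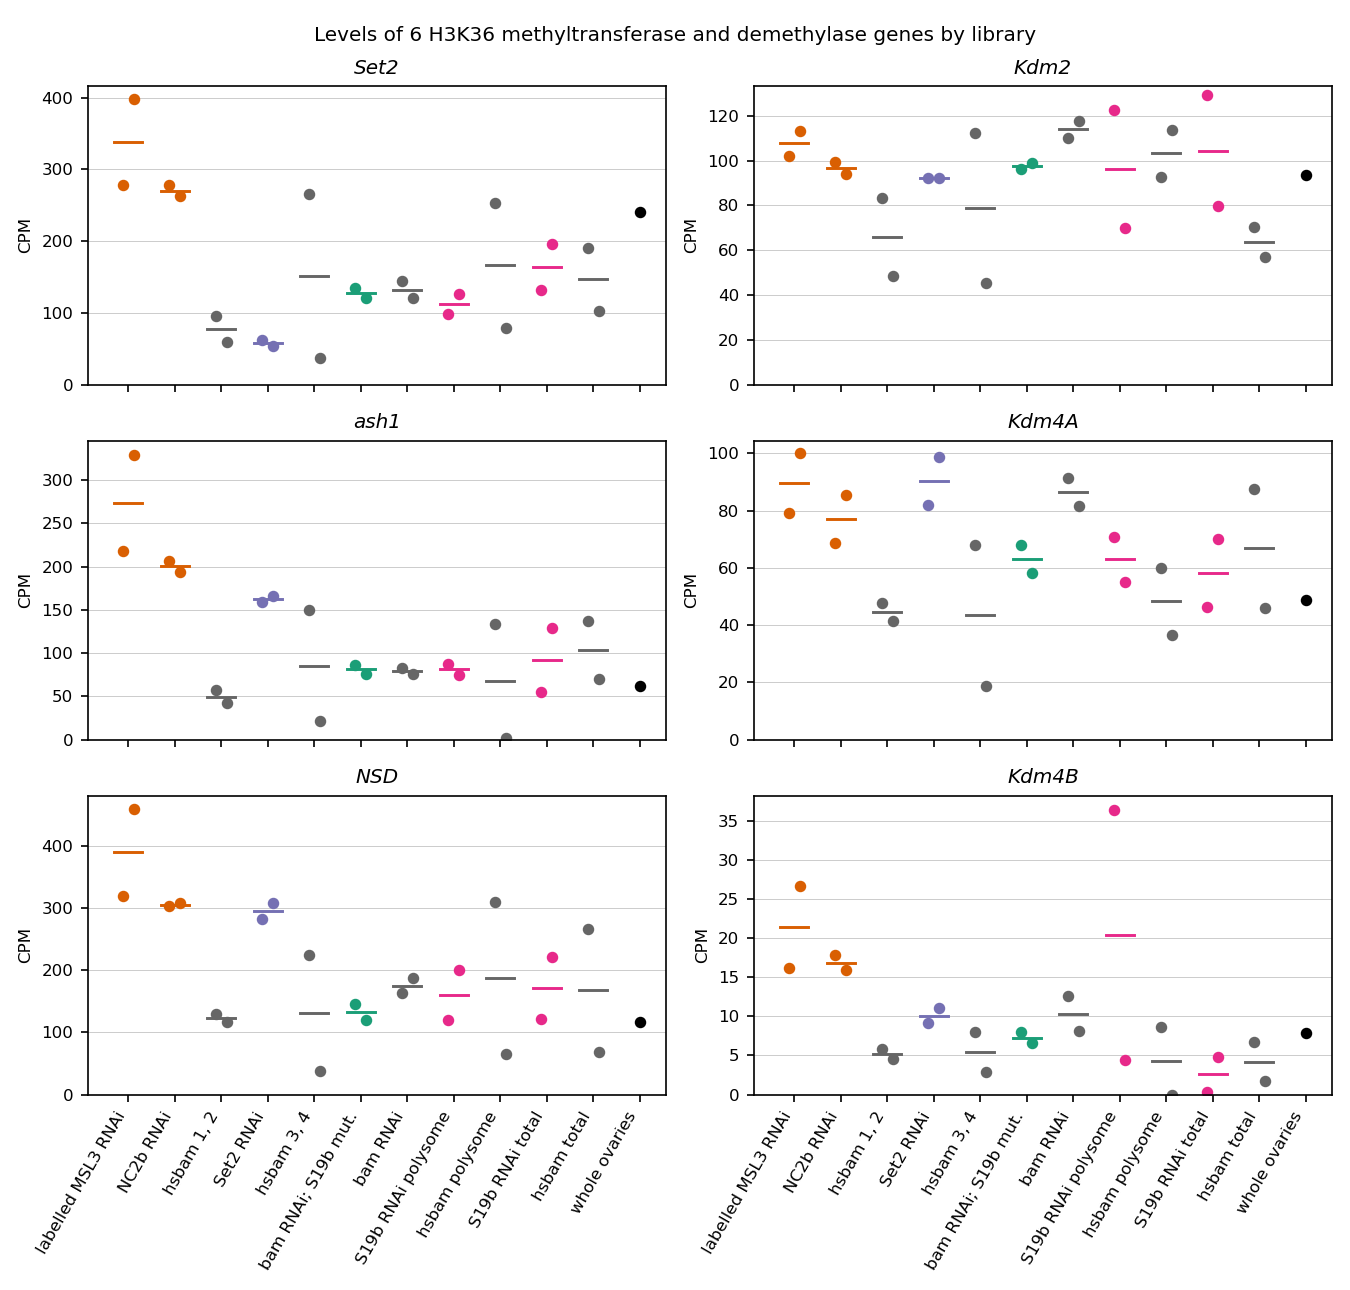
CPM of each gene in every library (points, y axis from 0) by group (x axis), with a bar at the group mean. Set2, ash1 and NSD have their highest points in the MSL3-labelled libraries, Set2 is at 54.3 and 62.2 CPM in Set2 RNAi, and the hsbam pairs are spread widely.

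Set2 was highest in the MSL3-labelled libraries, at 338 ± 84.9 CPM (SD, n = 2), ahead of NC2b RNAi with 271 ± 10.3 CPM and whole ovaries with 240.4 CPM in their 1 library (95% Poisson interval 235 to 246). The next 7 groups, with means between 113 and 166 CPM, each overlapped the group below them, apart from S19b RNAi polysome RNA. Its libraries, at 98.9 and 126 CPM, lay above hsbam 1 and 2 and Set2 RNAi, which overlapped each other. The order of ash1 began with the MSL3-labelled libraries at 273 ± 78.4 CPM, NC2b RNAi at 200.1 ± 9.42 CPM and Set2 RNAi at 163 ± 4.94 CPM, none of which overlapped the next. All other groups had means of 104 CPM or less, each overlapping its lower neighbour, except whole ovaries at 62.2 CPM, which lay above the lowest group, hsbam 1 and 2, at 49.7 ± 10.9 CPM. For NSD the MSL3-labelled libraries led with 389.9 ± 99.2 CPM, NC2b RNAi and Set2 RNAi overlapped each other at 306 ± 3.65 and 296 ± 18.6 CPM, and the other 9 groups had means from 117 to 188 CPM.

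The demethylases did not share 1 order of groups, and the highest groups of Kdm2 and Kdm4A changed with another scaling of library sizes, as given at the end. Kdm2 was highest in bam RNAi, at 114 ± 5.46 CPM, and lowest in hsbam total RNA, at 63.8 ± 9.36 CPM, and each group overlapped the next except Set2 RNAi, whose 92.3 and 92.4 CPM lay just under the 93.6 CPM of whole ovaries. Kdm4A was highest in Set2 RNAi, at 90.5 ± 11.9 CPM, and lowest in hsbam 3 and 4, at 43.4 ± 34.9 CPM, and every group overlapped its neighbour. Kdm4B was highest in the MSL3-labelled libraries, at 21.4 ± 7.41 CPM, followed by S19b RNAi polysome RNA, where 1 library had 36.4 CPM and the other 4.46 CPM, and by NC2b RNAi at 16.9 ± 1.35 CPM. The next group, bam RNAi at 10.3 ± 3.12 CPM, lay below NC2b RNAi without overlap.

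Set2 in the Set2 RNAi group checks that label. Set2 had 62.2 and 54.3 CPM in Set2 RNAi, against 266 and 37.2 CPM in the assigned controls hsbam 3 and 4. The Set2 RNAi values agreed closely and lay between the 2 control values, so the groups overlapped. The fitted log2 fold change was -1.53 (SE 0.91, 95% interval -3.88 to 0.82, adjusted p = 0.415 by the edgeR quasi-likelihood F test), which leaves the direction undecided. No gene passed there, 0% of 9313 tested, with 1972 at an unadjusted p under 0.05 and 1352 called by DESeq2. None of the 6 members passed with either tool or had an unadjusted p under 0.05. Without hsbam 3 the fold of Set2 was 0.46, and 5 of the 6 members, all but Set2, were called higher in Set2 RNAi, where 57.8% of 9797 genes were called in either direction and 31.1% higher. Without hsbam 4 the fold of Set2 was -2.33 and Set2 was the 1 member called, where 24.9% of 9863 genes were called in either direction and 14.1% lower. The muscle sheath sum was 982 and 908 CPM in Set2 RNAi, against 11561 and 20772 CPM in hsbam 3 and 4. The germline sum was 799 and 923 CPM in Set2 RNAi, against 682 and 316 CPM in hsbam 3 and 4. The part of these cells in the values was not tested.

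Against the knockdowns that shared its driver and UAS-Dcr2, a comparison chosen with earlier results of these data known, Set2 was lower in Set2 RNAi. The same 62.2 and 54.3 CPM stood against 398 and 278 CPM in the MSL3-labelled libraries and 278 and 263 CPM in NC2b RNAi. All 4 of those were higher than both Set2 RNAi libraries. The log2 fold change was -2.43 (SE 0.19, adjusted p = 0.0189 by the edgeR quasi-likelihood F test), about 0.185 of the level in the other knockdowns. Set2 was the 1 member called of 6, where 343 of 9542 genes (3.59%) were called in either direction and 1.77% were lower. Whole ovaries, with the driver and no RNAi, had 240.4 CPM of Set2, but other libraries came as low as Set2 RNAi, with 59.8 CPM in hsbam 2 and 37.2 CPM in hsbam 4. The call was lost without either Set2 RNAi library or either NC2b RNAi library, at folds from -2.63 to -2.30, and in a fit of all 23 libraries (-2.55, adjusted p = 0.305 by edgeR). Without the second MSL3-labelled library 4 members were called lower, where 10.3% of all genes were, and without the first 3, where 16.2% were. The germline sum was 799 and 923 CPM in Set2 RNAi, against 472 to 818 CPM in the other knockdowns, and its part was not tested.

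The other 5 members did not pass in that comparison. The gene ash1 had 159 and 166 CPM in Set2 RNAi, against 193 to 329 CPM in the other knockdowns (log2 fold change -0.59, 95% interval -0.99 to -0.18, adjusted p = 0.0855 by edgeR). Kdm4B had 9.10 and 11.1 CPM in Set2 RNAi, against 15.9 to 26.6 CPM (-0.97, interval -1.59 to -0.36, adjusted p = 0.0767 by edgeR). DESeq2 called ash1 and Kdm4B lower as well as Set2, 3 members in all, where it called 1957 of the 9542 genes (20.5%) in either direction and 12.7% lower. NSD, with 282 and 309 CPM in Set2 RNAi against 303 to 460.1 CPM, differed by -0.29 (interval -0.66 to 0.09). For Kdm2 the interval was -0.45 to 0.04 and for Kdm4A -0.31 to 0.42, so changes of up to about those sizes could not be told from none.

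Set2 also stood apart as a share of the methyltransferases, a ratio that was looked at after the levels had been seen and carries no test. Per kilobase, Set2 made up 9.05% and 7.44% of the summed level of Set2, ash1 and NSD in Set2 RNAi, against 20.4% to 48.5% in the other 21 libraries. The share in hsbam 3 and 4 was 33.8% and 30.4%, although their Set2 levels differed 7.14-fold. The sum of the 3 genes in these controls was 104 and 16.1 CPM per kb. The share in hsbam 2, the lowest outside Set2 RNAi, was 20.4%, and the highest, 48.5%, was in whole ovaries. The ratio of Set2 to NSD per kb was 0.133 and 0.106 in Set2 RNAi and 0.312 to 1.24 in the other libraries.

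**Figure D2:**
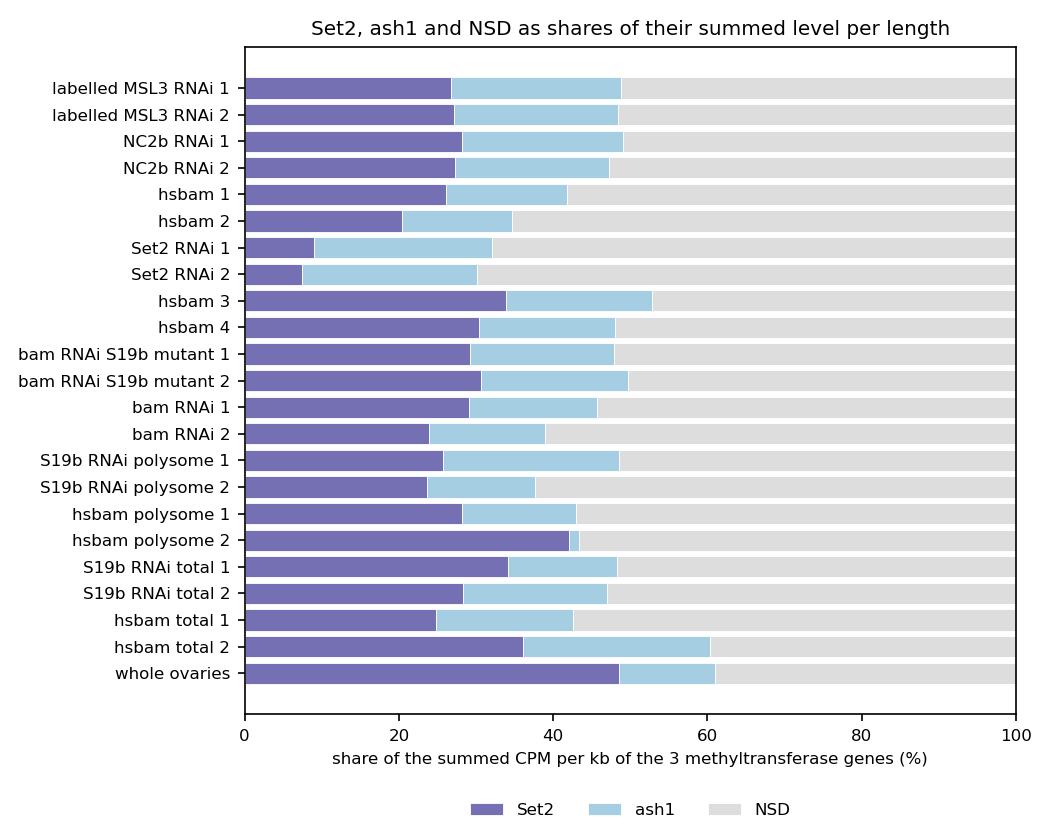
Stacked bars of the shares (%) of Set2, ash1 and NSD in their summed CPM per kb (x axis) in each of the 23 libraries (y axis). The Set2 share is 9.05% and 7.44% in Set2 RNAi and at least 20.4% in all other libraries, and it is largest in whole ovaries.

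In the MSL3-labelled libraries all 3 methyltransferases were higher than in hsbam 1 and 2. Set2 had 398 and 278 CPM in the MSL3-labelled libraries, against 95.7 and 59.8 CPM in hsbam 1 and 2, a log2 fold change of 2.19 (SE 0.31, adjusted p = 0.00999 by the edgeR quasi-likelihood F test). The gene ash1 had 329 and 218 CPM, against 57.4 and 42.0 CPM in hsbam (2.53, SE 0.28, adjusted p = 0.00978 by edgeR). NSD had 460.1 and 320 CPM, against 129 and 116 CPM in hsbam (1.74, SE 0.23, adjusted p = 0.00978 by edgeR). In each case both MSL3-labelled libraries lay above both controls. In NC2b RNAi, which shares those controls, the values were close to each other and also higher. Set2 had 278 and 263 CPM in NC2b RNAi (1.89, SE 0.30, adjusted p = 0.0182 by edgeR) and ash1 207 and 193 CPM (2.104, SE 0.27, adjusted p = 0.0166 by edgeR). NSD had 303 and 309 CPM in NC2b RNAi (1.42, SE 0.22, adjusted p = 0.0178 by edgeR). The 3 genes thus rose in both comparisons with hsbam 1 and 2, ash1 by the largest fold of the 3 in each.

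Of the demethylases, Kdm4A and Kdm4B passed in both comparisons and Kdm2 in neither. Kdm4A had 100.3 and 79.3 CPM in the MSL3-labelled libraries, against 47.7 and 41.4 CPM in hsbam 1 and 2 (1.08, SE 0.21, adjusted p = 0.0182 by edgeR). Kdm4A had 68.8 and 85.5 CPM in NC2b RNAi (0.89, SE 0.21, adjusted p = 0.0391 by edgeR), a call that was lost with DESeq2 size factors, with library size alone and with a replicate block. Kdm4B, whose counts are uncertain, had 26.6 and 16.2 CPM in the MSL3-labelled libraries and 17.8 and 15.9 CPM in NC2b RNAi, against 5.88 and 4.51 CPM in hsbam 1 and 2. Its log2 fold changes were 2.11 (SE 0.35) in the MSL3-labelled libraries and 1.79 (SE 0.35) in NC2b RNAi. Kdm2 had 113 and 102 CPM in the MSL3-labelled libraries and 99.3 and 94.2 CPM in NC2b RNAi, against 83.2 and 48.4 CPM in hsbam. Its log2 fold change was 0.78 (95% interval 0.09 to 1.47, adjusted p = 0.0933 by edgeR) in the MSL3-labelled libraries. In NC2b RNAi it was 0.65 (interval -0.04 to 1.33, adjusted p = 0.140 by edgeR). The methyltransferases summed to 2.64 and 2.24 times the demethylases per kb in the MSL3-labelled libraries and 2.37 and 2.06 times in NC2b RNAi. In hsbam 1 and 2 they summed to 1.22 and 1.29 times, a description with no test. The other hsbam libraries spread from 0.64 times in polysome 2 to 2.48 times in polysome 1, with 1.87 times in hsbam 3.

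These comparisons called a large part of all genes. In the MSL3-labelled libraries 5 of the 6 members were called, all higher, where 25.3% of 10180 genes were called in either direction and 16.8% higher. In NC2b RNAi 5 of 6 were called, all higher, against 18.6% of all genes in either direction and 14.1% higher. The median log2 fold change of the members was 1.92 in the MSL3-labelled libraries and 1.605 in NC2b RNAi, and that of all genes was -0.09 in each. With all 4 hsbam libraries as control 0 members were called by edgeR in either comparison, and 0 in a fit of all 23 libraries. With the 4 hsbam libraries the log2 fold changes of the 5 genes called before were 0.84 to 1.98. Of all genes, 18 and 3 of 10651 were called with the 4 hsbam libraries, and 0 of 11664 in the fit of all 23. In NC2b RNAi leaving out either of its own libraries left 0 calls, of members and of all genes, and leaving out hsbam 2 left 1 member, ash1, and 370 of 10645 genes. Markers of later oogenesis (osk, grk, bcd, Yp1, Vm26Aa, Cp36) summed to 7133 and 5991 CPM in the MSL3-labelled libraries and 11736 and 9869 CPM in NC2b RNAi. In hsbam 1 and 2 they summed to 2525 and 6688 CPM, with none of the 6 at 0. The gene osk had 1566 and 902 CPM in the MSL3-labelled libraries and 1415 and 1169 CPM in NC2b RNAi, against 81.2 and 15.5 CPM in hsbam. Cp36 had 2499 and 2453 CPM and 3544 and 3021 CPM, against 16.0 and 154 CPM. Both controls were also below each of these libraries for bcd, but not for grk, Yp1 and Vm26Aa. The somatic ovary markers summed to 239 and 804 CPM in the MSL3-labelled libraries and 416 and 404 CPM in NC2b RNAi, against 1003 and 1203 CPM in hsbam 1 and 2. The marker en was at 0 in both NC2b RNAi libraries. The germline sum was 808 and 472 CPM in the MSL3-labelled libraries and 818 and 812 CPM in NC2b RNAi, against 398 and 559 CPM in hsbam 1 and 2, and its genes did not move as one. The gene nos had 406 and 235 CPM in the MSL3-labelled libraries and 463 and 423 CPM in NC2b RNAi, against 95.8 and 112 CPM in hsbam 1 and 2. The gene aub had 150.3 and 81.1 CPM in the MSL3-labelled libraries and 127 and 138 CPM in NC2b RNAi, against 191 and 280.1 CPM in hsbam 1 and 2. The part of these cell types in the results was not tested.

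**Figure D3:**
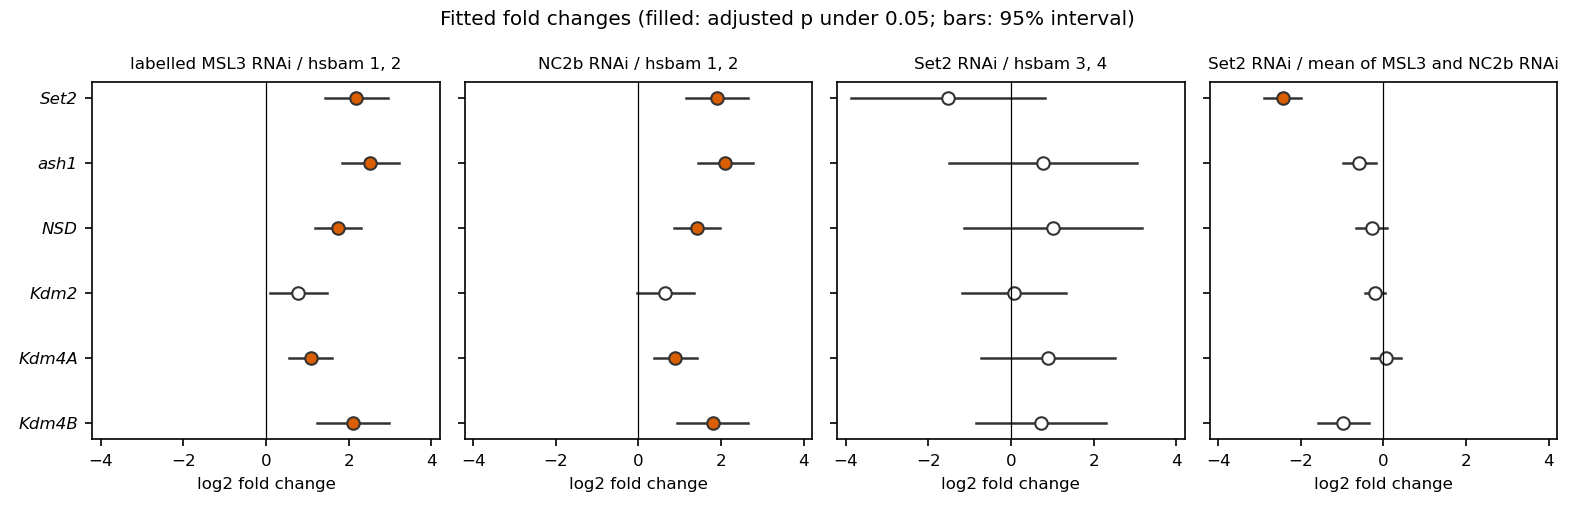
Fitted log2 fold changes (x axis) of the 6 genes (y axis) in 4 comparisons, with 95% intervals as bars and filled points where the adjusted p was under 0.05. In the 2 comparisons with hsbam 1 and 2 every gene but Kdm2 is called higher, in Set2 RNAi against hsbam 3 and 4 all intervals cross 0, and against the other knockdowns Set2 is the 1 gene called, at -2.43.

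Genes that work with the mark were counted in lists chosen with earlier results of these data known. Each count stands against the 25.3% of all genes called in the MSL3-labelled libraries (16.8% called higher) and the 18.6% in NC2b RNAi (14.1% called higher). Of 11 readers and partners of methylated H3K36, 5 rose in the MSL3-labelled libraries and 5 in NC2b RNAi, and none fell. Br140, a bromodomain and PWWP protein of a histone acetyltransferase complex, rose by 2.07 (SE 0.24) in the MSL3-labelled libraries and 1.79 (SE 0.24) in NC2b RNAi. Sin3A, the scaffold of histone deacetylase complexes, rose by 1.89 (SE 0.26) in the MSL3-labelled libraries and 1.42 (SE 0.26) in NC2b RNAi. Kdm5, an H3K4 demethylase, rose by 1.49 (SE 0.27) in the MSL3-labelled libraries, and JIL-1, a histone H3 kinase of the male X and other active chromatin, by 1.10 (SE 0.22) in NC2b RNAi. The list's median log2 fold change was 0.65 in the MSL3-labelled libraries and 0.87 in NC2b RNAi, beside the -0.09 of all genes.

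Of 14 genes for RNA polymerase II, its kinases and elongation factors, 4 rose and 1 fell in the MSL3-labelled libraries and 3 rose in NC2b RNAi, with list medians of 0.26 and 0.28. These shares were near those of all genes and are no result about the list. Rtf1, which works with the Paf1 complex, rose by 1.17 (SE 0.19) in the MSL3-labelled libraries and 0.85 (SE 0.19) in NC2b RNAi. CycT, the cyclin of the elongation kinase P-TEFb, rose by 1.06 (SE 0.19) in the MSL3-labelled libraries and 0.81 (SE 0.19) in NC2b RNAi, and the polymerase kinase Cdk12 by 0.91 (SE 0.20) in the MSL3-labelled libraries and 0.83 (SE 0.20) in NC2b RNAi. The 1 gene that fell, Cdk9 (-0.75, SE 0.21), is named after its value was seen. It is the kinase partner of CycT. With DESeq2 size factors this list had 3 calls in the MSL3-labelled libraries and 0 in NC2b RNAi, where 2374 and 1676 of 10180 genes were called.

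Of 10 methyltransferases of other histone lysines, 7 rose in the MSL3-labelled libraries and 7 in NC2b RNAi, with medians of 1.42 and 1.15. G9a, an H3K9 methyltransferase, rose by 2.62 (SE 0.28) in the MSL3-labelled libraries and 2.66 (SE 0.28) in NC2b RNAi. The H3K4 methyltransferase trx rose by 2.02 (SE 0.19) in the MSL3-labelled libraries and 1.67 (SE 0.19) in NC2b RNAi, and Set8, which monomethylates H4K20, by 1.63 (SE 0.21) in the MSL3-labelled libraries and 1.39 (SE 0.21) in NC2b RNAi. Of 7 other demethylases, 3 rose in the MSL3-labelled libraries and 2 in NC2b RNAi. Su(var)3-3, an H3K4 demethylase, rose by 1.36 (SE 0.22) in the MSL3-labelled libraries and 1.03 (SE 0.21) in NC2b RNAi. Kdm5 is also in this list, and Utx, which acts on H3K27, rose by 0.72 (SE 0.17) in the MSL3-labelled libraries. All 4 lists had 0 calls in both comparisons with all 4 hsbam libraries as control, and 0 in NC2b RNAi without either of its own libraries. For the MSL3-labelled libraries, leaving out hsbam 2 or the first of them left 2 readers, 2 polymerase genes and 1 other demethylase called, and leaving out either NC2b RNAi library left 2, 1 and 1. These 4 fits called 975 to 1277 of all genes. For NC2b RNAi, leaving out hsbam 2 left 2 other methyltransferases as the 2 calls in the 4 lists, and leaving out either MSL3-labelled library gave 8 readers, 1 of them lower, and 4 other demethylases. The first of these fits called 370 of all genes and the last pair 2857 and 2832. In Set2 RNAi edgeR called 0 genes of the 4 lists against hsbam 3 and 4, with 2 at an unadjusted p under 0.05 and 0 called by DESeq2. Without hsbam 3 all 4 lists had genes called, from 5 of the 7 other demethylases to 10 of the 11 readers, where 57.8% of all genes were called. Against the other knockdowns edgeR also called 0 in Set2 RNAi, and DESeq2 called 2 readers, 3 polymerase genes, 3 other methyltransferases and 1 other demethylase, which were also the numbers at an unadjusted p under 0.05 except 4 for the polymerase genes. Of all 9542 genes DESeq2 called 20.5% there and 2922 had an unadjusted p under 0.05, so these list counts were near the background.

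Supplying bam to bam RNAi ovaries lets germ cells differentiate, and hsbam 1 to 4 were set against bam RNAi to see how the members compare. The gene bam itself had 4.61, 71.9, 173 and 77.0 CPM in hsbam 1 to 4, against 2.09 and 6.17 CPM in bam RNAi. In hsbam 1 its level therefore lay inside the range of bam RNAi. Set2 had 95.7, 59.8, 266 and 37.2 CPM in hsbam 1 to 4, against 144 and 121 CPM in bam RNAi. The gene ash1 had 57.4, 42.0, 149 and 21.7 CPM in hsbam 1 to 4, against 82.3 and 76.4 CPM in bam RNAi. NSD had 129, 116, 224 and 38.5 CPM in hsbam 1 to 4, against 163 and 188 CPM in bam RNAi. The hsbam values of all 3 methyltransferases spanned those of bam RNAi, with hsbam 3 above them and the other hsbam libraries below. The hsbam values of the demethylases lay mostly under those of bam RNAi, and the fitted log2 fold changes of all 6 members were below 0. Kdm4A had 47.7, 41.4, 68.1 and 18.7 CPM in hsbam 1 to 4, against 91.4 and 81.7 CPM in bam RNAi. Kdm2 had 45.6 to 112 CPM in hsbam 1 to 4, against 110.1 and 118 CPM in bam RNAi. Kdm4B had 2.90 to 7.94 CPM in hsbam 1 to 4, against 12.6 and 8.15 CPM in bam RNAi. How many of all genes lay apart like Kdm4A and Kdm4B was not counted, so this is no result about the demethylases. No member and no gene passed (0% of 10088), with 1980 genes at an unadjusted p under 0.05 and 1076 called by DESeq2, which called 0 members. The muscle sheath sum was 5132 to 20772 CPM in hsbam 1 to 4, against 1898 and 1949 CPM in bam RNAi. The germline sum was 398, 559, 682 and 316 CPM in hsbam 1 to 4, against 700.3 and 1041 CPM in bam RNAi. The part of these cells was not tested. The 95% interval of the log2 fold change was -1.81 to 0.16 for Kdm4A and -1.61 to 1.51 for Set2, which leaves the direction of both undecided.

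Whole ovaries hold all stages up to mature eggs, and their 1 library gives levels but no test. Set2 was at 240.4 CPM there, which only the MSL3-labelled libraries, NC2b RNAi, hsbam 3 and hsbam polysome 1 exceeded. NSD, at 117 CPM (95% Poisson interval 113 to 121), and ash1, at 62.2 CPM (59.4 to 65.0), were low there relative to Set2. Set2 per kb was 1.24 times NSD and 3.88 times ash1 in whole ovaries. Kdm2, Kdm4A and Kdm4B were at 93.6, 48.7 and 7.87 CPM.

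The RpS19b mutation was compared with its control within bam RNAi ovaries, where the 2 libraries of each group were close. Set2 had 134 and 121 CPM in bam RNAi;S19b mutant ovaries, against 144 and 121 CPM in bam RNAi (log2 fold change -0.005, 95% interval -0.49 to 0.48). The gene ash1 had 86.2 and 76.1 CPM in the mutant, against 82.3 and 76.4 CPM in bam RNAi (0.08, interval -0.39 to 0.55). These intervals leave room for a change of about 0.5 on the log2 scale in either gene. NSD had 145 and 120.5 CPM in the mutant, against 163 and 188 CPM in bam RNAi (-0.34, interval -0.80 to 0.13). Kdm4A had 68.0 and 58.1 CPM in the mutant, against 91.4 and 81.7 CPM in bam RNAi (-0.40, interval -0.90 to 0.09). NSD and Kdm4A, like Kdm2 and Kdm4B, whose values follow, were lower in both mutant libraries without passing the test. The share of all genes separated in this way was not counted. Kdm2, with 96.2 and 98.9 CPM in the mutant against 110.1 and 118 CPM in bam RNAi, had an interval of -0.57 to 0.23, and Kdm4B, with 7.96 and 6.62 CPM against 12.6 and 8.15 CPM, one of -1.44 to 0.52. No member was called by edgeR or DESeq2 or had an unadjusted p under 0.05, where 588 of 9595 genes (6.13%) were called. The muscle sheath sum was 4209 and 7876 CPM in the mutant, against 1898 and 1949 CPM in bam RNAi, and the later oogenesis sum 4673 and 1930 CPM, against 1221 and 956 CPM. The germline sum was 456 and 459.9 CPM in the mutant, against 700.3 and 1041 CPM in bam RNAi, with aub at 234 and 272 CPM, against 404 and 607 CPM. The part of these cells was not tested.

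Total and polysome RNA were taken to ask whether S19b RNAi changes which mRNAs are bound by ribosomes. In total RNA Set2 had 132 and 196 CPM in S19b RNAi, against 191 and 103 CPM in hsbam, and NSD 121 and 222 CPM, against 267 and 68.9 CPM. The gene ash1 had 55.1 and 129 CPM in S19b RNAi total RNA, against 137 and 69.9 CPM in hsbam. In all 3 genes the libraries of 1 group spanned or overlapped those of the other. Kdm4A overlapped as well, with 46.2 and 70.2 CPM in S19b RNAi, against 87.6 and 46.1 CPM in hsbam. Kdm2 did not overlap, with 129 and 79.5 CPM in S19b RNAi, against 70.4 and 57.2 CPM in hsbam. The share of all genes without overlap was not counted. No gene of 9688 passed (0%), with 170 at an unadjusted p under 0.05 and 46 called by DESeq2, and 0 of the 6 members passed with either tool. The muscle sheath sum in total RNA was 14965 and 5274 CPM in S19b RNAi, against 3528 and 13568 CPM in hsbam. The germline sum there was 297 and 584 CPM in S19b RNAi, against 974 and 329.7 CPM in hsbam. Of this sum bam gave 4.07 and 39.1 CPM in S19b RNAi, and 383 and 95.3 CPM in hsbam. The part of muscle sheath and germline cells was not tested.

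In polysome RNA Set2 had 98.9 and 126 CPM in S19b RNAi, against 253 and 79.5 CPM in hsbam, and NSD 119.9 and 201 CPM, against 310.4 and 64.7 CPM. The gene ash1 had 88.0 and 74.8 CPM in S19b RNAi polysome RNA, against 134 and 2.52 CPM in hsbam. All 3 again lay inside the span of the hsbam pair. Kdm2 had 122 and 69.9 CPM in S19b RNAi polysome RNA, against 92.9 and 114 CPM in hsbam, and Kdm4A 70.8 and 55.2 CPM, against 59.9 and 36.7 CPM. Both overlapped between the genotypes. No gene passed in the polysome comparison either (0% of 9688), with 320 at an unadjusted p under 0.05 and 106 called by DESeq2, none of them a member.

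The log2 ratio of polysome to total CPM, taken between libraries with the same number, describes how much of an mRNA was recovered with polysomes. For Set2 it was -0.42 and -0.63 in S19b RNAi, against 0.41 and -0.38 in hsbam, and for NSD -0.01 and -0.14, against 0.22 and -0.09. Kdm2 had ratios of -0.08 and -0.19 in S19b RNAi, against 0.40 and 0.99 in hsbam. For Set2 and Kdm2 both S19b RNAi ratios were below both hsbam ratios, for Set2 only by -0.42 against -0.38, and for NSD they overlapped. The share of all genes separated in this way was not counted, so this is no result about Set2 or Kdm2. The second hsbam ratio also rests on hsbam polysome 2, the shallowest library. Kdm4A had ratios of 0.62 and -0.34 in S19b RNAi, against -0.55 and -0.33 in hsbam. The ratios of ash1 were 0.68 and -0.79 in S19b RNAi, against -0.03 and -4.80 in hsbam, where the last rests on 7 counts. No gene, and no member, was called for the ratio within hsbam, the ratio within S19b RNAi or the change of the ratio between them (0% of 9688 in each). DESeq2 also called 0 genes in these 3, and edgeR gave 42 genes an unadjusted p under 0.05 within hsbam, 5 within S19b RNAi and 5 for the change, none of them a member. Leaving out hsbam polysome 1, so that hsbam polysome 2 with its 7 counts stood alone, gave a call of ash1 in S19b RNAi against hsbam in polysome RNA and in hsbam polysome against total RNA, where 722 and 460 of 10300 genes were called.

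Kdm4B was uneven between the S19b RNAi libraries. In polysome 1 it had 297 counts (36.4 CPM, 95% Poisson interval 32.4 to 40.8), its highest CPM in the 23 libraries, and in total 1 it had 3 counts (0.33 CPM, interval 0.07 to 0.96). The second pair was even, with 4.46 CPM in polysome RNA and 4.84 CPM in total RNA. In hsbam it had 8.58 CPM in polysome 1 and 6.66 CPM in total 1, and 0 CPM in polysome 2, against 1.69 CPM in total 2. CG17724, which shares most of its exon bases, had 20.2 CPM in S19b RNAi polysome 1 and 13.0 CPM in total 1. The S19b RNAi libraries numbered 1 were also those with the higher RpS19b of the genotype, 16.1 and 16.8 CPM. They had 66 and 56 of the 6992 well expressed genes at 0.

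**Figure D4:**
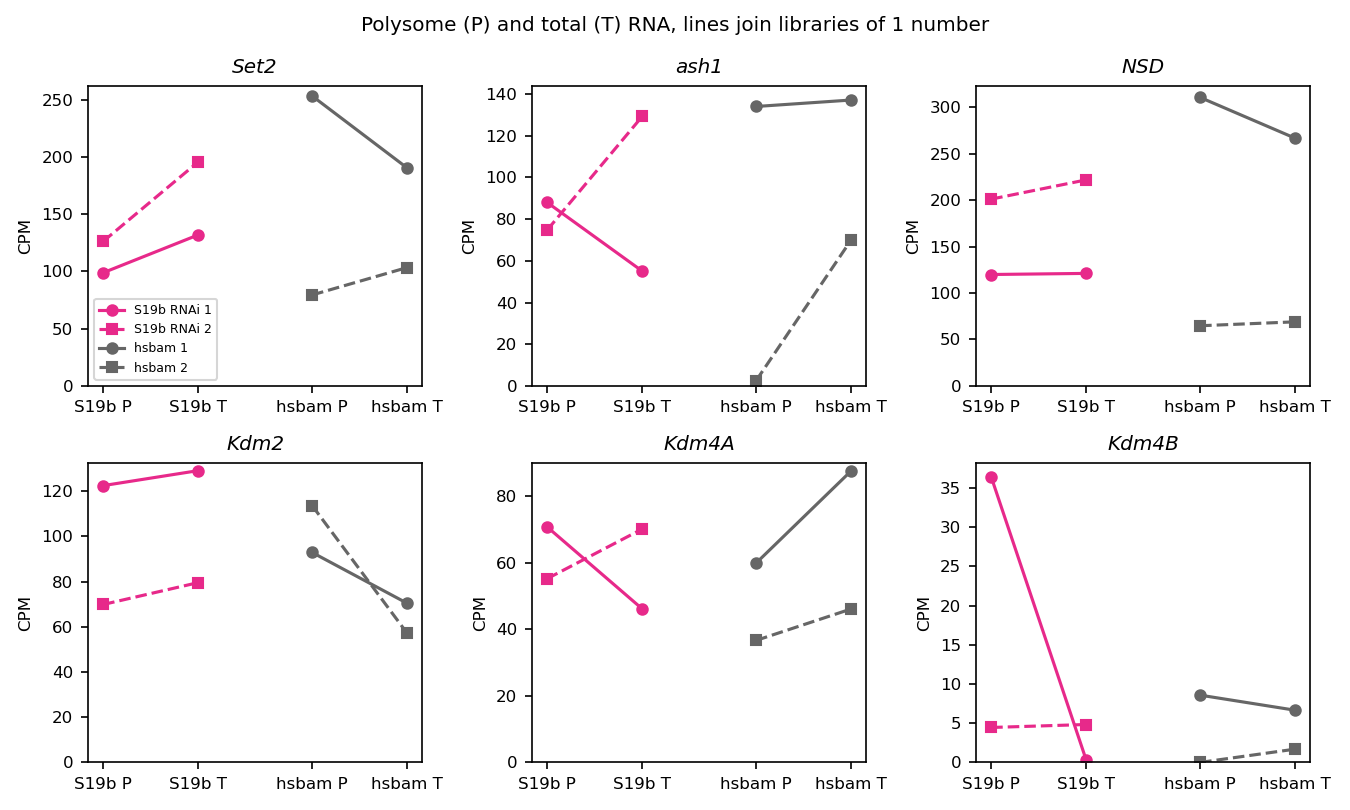
CPM (y axis, from 0) of each gene in polysome (P) and total (T) RNA of S19b RNAi and hsbam (x axis), with lines joining libraries of the same number. The lines of the 2 libraries of a genotype cross or run far apart for most genes, and Kdm4B has 36.4 CPM in S19b RNAi polysome 1 beside 0.33 CPM in total 1.

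Across the 23 libraries the members varied together to different degrees. These correlations are of log2 CPM over libraries that share genotypes and differ in depth, and describe them with no test. The closest pair was NSD and Kdm4A (Pearson r = 0.84), then ash1 and Kdm4B (0.81) and ash1 and NSD (0.78). Both ash1 and Kdm4B were lowest in hsbam polysome 2, the shallowest library, and no r between members was computed without it. Set2 was tied more loosely, with r of 0.63 to NSD, 0.54 to Kdm4A and 0.52 to ash1. Kdm2 was nearly unrelated to ash1 (0.04) and to Kdm4B (-0.03).

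Among the genes with a mean of at least 10 CPM, those most like each member over the 23 libraries were the following. For Set2 they were rb, a subunit of the AP-3 adaptor complex, with r of 0.85, and raskol, a Ras GTPase activating protein, with r of 0.77. For NSD they were dup, the replication licensing factor Cdt1 (0.96), and CG3679 (0.96), and for Kdm4A Caf1-180, the large subunit of the chromatin assembly factor CAF-1 (0.97), and the DNA helicase gene Blm (0.93). For ash1 they were l(3)psg2 (0.98) and spir, an actin nucleator needed for oocyte polarity (0.97). For Kdm4B they were Ku80, a DNA end binding protein (0.91), and Topors, a ubiquitin ligase (0.90). For Kdm2 they were cnc, a stress response transcription factor (0.81), and fs(1)h, a bromodomain protein (0.79). Without hsbam polysome 2 the r values of Ku80 and Topors with Kdm4B were 0.82 and 0.79. Those of l(3)psg2 and spir with ash1 were then 0.95 and 0.94, and those of cnc and fs(1)h with Kdm2 were 0.77 and 0.76. The r values of the genes named for Set2, NSD and Kdm4A moved by less than 0.01.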

How the data were processed

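The authors deposited raw read counts per gene for each of the 23 libraries, and the submitters' processing notes name dm6, HISAT2 2.1.0, featureCounts 1.6.0.4 and edgeR 3.16.5. RNA was poly(A)-selected and libraries were directional, per the labels' protocols. No source used here gives the strand setting or the annotation release. A further 8 short tables were not used.

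CPM are counts scaled to library totals, and CPM per kb divide by the union of a gene's exons in the Ensembl annotation of dm6. Tests on the counts used edgeR 4.0.16 (R 4.3.3), with TMM (filterByExpr with minimum count 10 and minimum total 15, quasi-likelihood F test, Benjamini-Hochberg over all genes tested, threshold 0.05), checked on simulated data. SE is the log2 fold change over the root of F, and folds and rises given from a fit are on the log2 scale. The MSL3-labelled, NC2b RNAi and hsbam 1 and 2 libraries shared a fit, as did the Set2 RNAi, MSL3-labelled and NC2b RNAi libraries and the 8 total and polysome libraries. Alternatives included DESeq2 1.42.0, other scalings, other controls, a replicate block and leaving out each library.

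The members, lists and rules, and the comparison of Set2 RNAi with the other knockdowns, were chosen with earlier results of these data known. Named genes were the members, the 2 genes most correlated with each (log2 CPM, TMM, prior count 2), up to 3 called genes with the smallest p per list, and the targeted genes. Of the germline markers vas was not used here.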

Additional observations from a re-analysis of the deposited data

How the results depend on the processing

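Of 142 counts of members called under an alternative, 123 were within 1.5 times the reported count. A count of 0 beside a reported 0 was taken as within, and most comparisons had a reported count of 0. Members were called only in the MSL3-labelled libraries, in NC2b RNAi and in Set2 RNAi against the other knockdowns. The 123 therefore say little about how steady the calls in these comparisons were. Against hsbam 1 and 2, the MSL3-labelled libraries and NC2b RNAi had 0 members called with all 4 hsbam libraries as control and 0 in a fit of all 23 libraries. Leaving out 1 library gave 4 to 6 member calls for the MSL3-labelled libraries, 0 to 5 for NC2b RNAi, 0 to 5 for Set2 RNAi against hsbam 3 and 4, and 0 to 4 for Set2 RNAi against the other knockdowns. DESeq2 called 3 members in the last and the fit of all 23 libraries 0. In the total and polysome libraries the range was 0 to 1 for S19b RNAi against hsbam in polysome RNA and for hsbam polysome against total RNA. The cause of these shifts was not tested. A lone library left in a group was assumed to vary like the other groups.

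Direction changed in 20 of 420 fold changes outside the total and polysome libraries, none of a called member. In those libraries, where no member was called, it changed in 38 of 432, 32 of them with 1 library left out: 14 in S19b RNAi against hsbam in total RNA, 4 in polysome RNA, 8 in hsbam polysome against total RNA, 7 in S19b RNAi polysome against total RNA and 5 in the change of the ratio. NSD in total RNA, at -0.035, was 1.14 without hsbam total 1. Leaving out 1 library gave a range of log2 fold changes for Set2 RNAi against hsbam 3 and 4. They were -2.33 to 0.46 for Set2, -0.021 to 2.71 for ash1 and -0.42 to 0.83 for Kdm2. For Set2 RNAi against the other knockdowns Kdm4A was -0.050 to 0.12, and -0.060 in the fit of all 23 libraries. For hsbam 1 to 4 against bam RNAi, Set2 was -0.85 to 0.24 and ash1 -0.78 to 0.19. For bam RNAi;S19b mutant against bam RNAi, Set2 was -0.21 to 0.18 and ash1 -0.068 to 0.19. Library size alone as scaling moved the median log2 fold change of all genes to 0.21, against 0.04 with TMM, in Set2 RNAi against hsbam 3 and 4, and to -0.07, against 0.11, in hsbam against bam RNAi. No member called with TMM changed direction with it. The mean of Kdm2 in bam RNAi was 103 CPM on TMM-scaled library sizes, against 114 CPM, and was then no longer the highest of the groups. Kdm4A was then at 84.4 CPM in Set2 RNAi and at 95.4 CPM in the MSL3-labelled libraries, so its highest group changed too.

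Pairs of libraries with the same number gave correlations of deviations from -0.47 to 0.46, and with 2 pairs these do not establish pairing. With a replicate block the members called were 5 in the MSL3-labelled libraries, 4 in NC2b RNAi (Kdm4A 0.90, adjusted p = 0.069 by edgeR), 1 in Set2 RNAi against the other knockdowns and 0 in the other comparisons. In the same fits 1923, 1266 and 42 of all genes were called, against 2573, 1897 and 343 without the block. In bam RNAi;S19b mutant against bam RNAi Set2 was 0.0028 under the block and 2150 genes were called, against 588. Crossing the numbers gave 8 calls of all genes in total RNA and 15 in polysome RNA, against 0 in each, an alternative chosen after seeing the data. No paired analysis was possible for Set2 RNAi against hsbam 3 and 4 because they share no number.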
